A study of Mus musculus with 25 samples.

Results

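Peritoneal macrophage genes were examined in tumours grown from oncogenic liver progenitors, as 8 listed genes, Gata6, Prg4, Alox15, Icam2, Cd93, Rarb, Serpinb2 and Adgre1, chosen by symbol from the 24984 genes of the count table. All 8 were present in the table. The libraries came from cultured BMEL cells (bipotential mouse embryonic liver cells, a clonally derived progenitor line from a C57BL/6 and C3H cross) and from tumours of such cells in athymic nude mice, which lack a thymus and mature T cells. Cultured cells carried an empty vector (BMEL WT) or H-Ras G12V at a low (RasLOW) or high (RasHIGH) level, with 3 cultures each. From each of 4 mice, a liver tumour and a peritoneal tumour were dissociated and sorted by GFP fluorescence, Venus in the study's methods, into positive tumour cells and negative stromal cells, giving 4 libraries each of tumour cells and stroma per site. Every stromal library was thus from a tumour, none from healthy liver or from peritoneal fluid, and the labels do not say which Ras population a mouse received, nor the ages of the mice.

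Large peritoneal macrophages are the resident macrophages of the peritoneal cavity. Their identity depends on the transcription factor Gata6, whose level in these cells is sustained by retinoic acid acting through retinoic acid receptors. Mesothelial cells and fibroblasts of the cavity wall are known sources of retinoic acid, under control of Wt1. Known members of the programme include Prg4, Alox15, Icam2, Cd93, Serpinb2 and the receptor gene Rarb, and the cells carry a high level of F4/80, the product of Adgre1. Several of these genes are also used by other cells. Gata6 is a factor of endoderm, heart and mesothelium, Prg4 of synovial and other connective tissue cells, Icam2 and Cd93 of endothelium, Alox15 of eosinophils, and Adgre1 of most mouse tissue macrophages.

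Rarb is itself a textbook target of retinoic acid, so its promoter is shown with that of Cyp26a1, which encodes a retinoic acid degrading enzyme. The search used 300 bases per promoter, from 250 before to 50 after the start of the gene, from RefSeq on GRCm38.p6, in which 2 of the 8 genes, Rarb and Serpinb2, and 89 of all listed genes named here had an entry. A retinoic acid response element was taken as a direct repeat of 2 hexamers, each AGGTCA with G also allowed as the first base and T as the third, with 5 bases between them, on either strand. Among the 89 genes, Rarb and Cyp26a1 held such a repeat, as did 0.0974% of all 32851 promoters. In Rarb (chr14:16575427-16575726, minus strand) it starts at position -53 from the start of the gene and in Cyp26a1 (chr19:37697558-37697857, plus strand) at -32, on the opposite strand. The 2 hexamers are in capitals.
Rarb: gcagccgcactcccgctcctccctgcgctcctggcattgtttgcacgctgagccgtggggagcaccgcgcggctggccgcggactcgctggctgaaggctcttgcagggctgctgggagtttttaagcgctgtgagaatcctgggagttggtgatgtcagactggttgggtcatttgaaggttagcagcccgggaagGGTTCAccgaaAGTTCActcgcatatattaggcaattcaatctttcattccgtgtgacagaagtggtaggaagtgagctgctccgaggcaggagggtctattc
Cyp26a1: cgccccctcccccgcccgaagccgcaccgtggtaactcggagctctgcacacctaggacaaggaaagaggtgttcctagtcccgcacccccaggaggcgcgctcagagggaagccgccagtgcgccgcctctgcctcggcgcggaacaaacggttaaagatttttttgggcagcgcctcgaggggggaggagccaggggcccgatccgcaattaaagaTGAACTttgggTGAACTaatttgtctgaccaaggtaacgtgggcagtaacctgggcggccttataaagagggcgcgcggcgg
A GATA motif (AGATAA with T also allowed as the first base and G as the last, either strand) was in neither sequence. It was found in 1 of the 2 overlapping Serpinb2 entries and in 29.8% of all promoters. These matches describe the letters of the window only.

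Total counts per library lay between 20818989 and 51241336. Levels are given as CPM, the counts of a gene scaled to the total of its library, in mouse order 1 to 4 for sorted cells. A level of 3 counts corresponds to between 0.0585 and 0.144 CPM, a limit that covers counting error only. Differences were tested by edgeR's quasi-likelihood test and adjusted by Benjamini-Hochberg over every gene in the comparison, and a gene was called at an adjusted p under 0.05. In a bulk library, fewer cells of a type and less RNA per cell cannot be told apart.

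**Figure D1:**
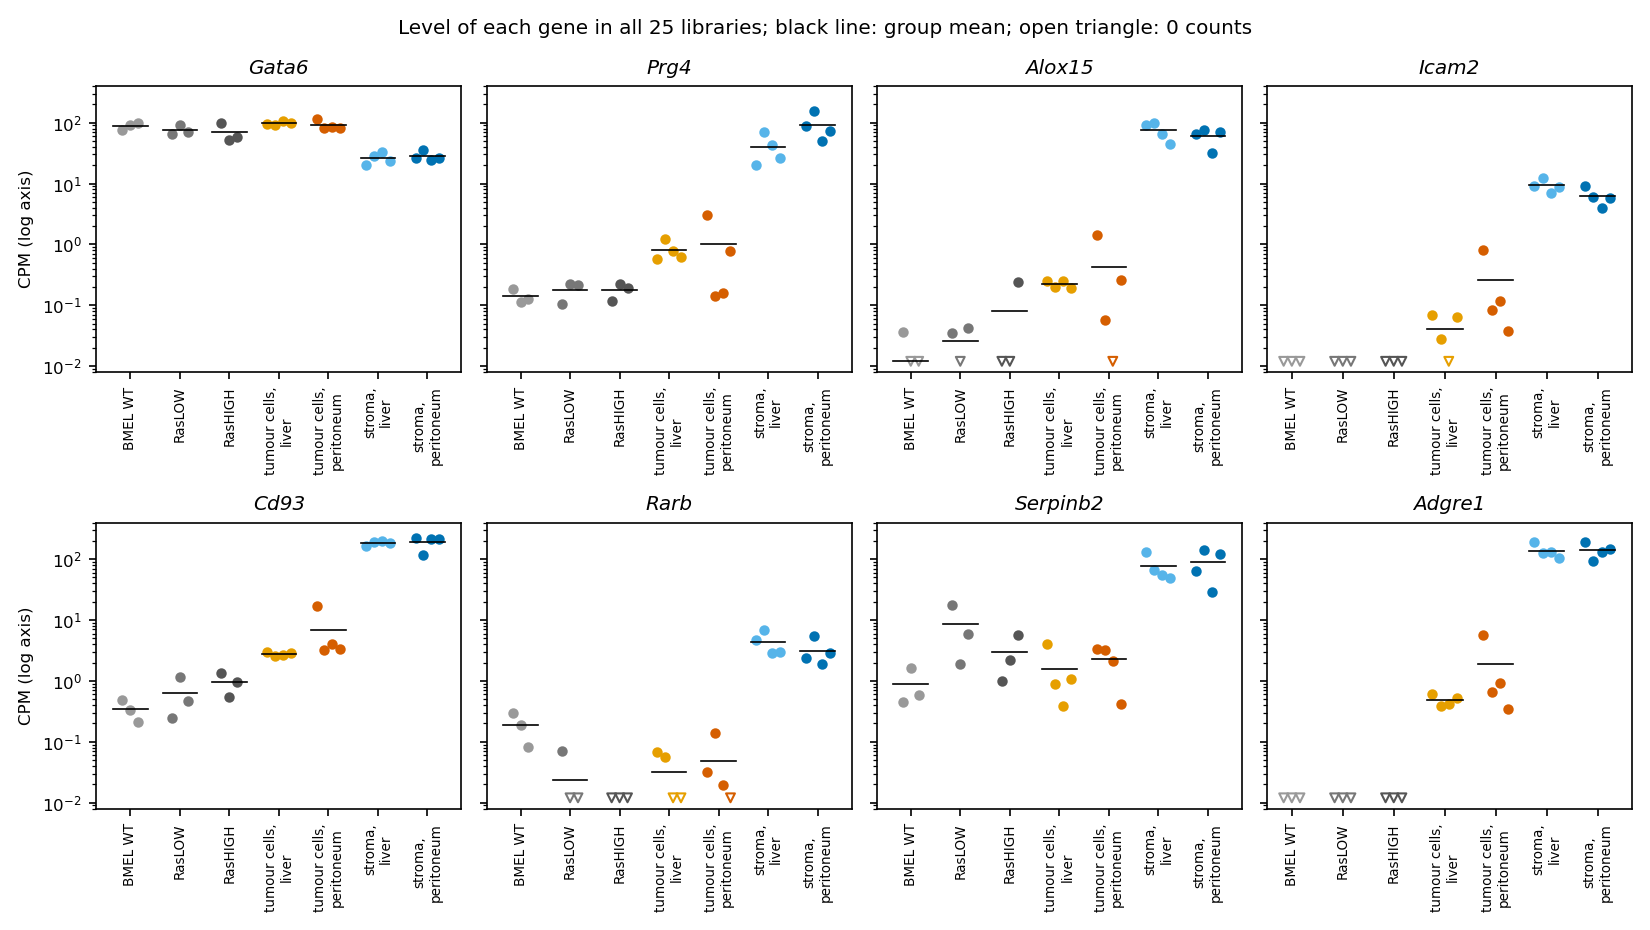
Level of the 8 genes (CPM, log axis) in the 25 libraries, by group; points are cultures or mice, black lines are group means and open triangles stand for 0 counts. Gata6 was between 52.3 and 114 CPM in every culture and tumour cell library and between 19.98 and 35.2 CPM in stroma, whereas the other 7 genes were highest in the stromal libraries.

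The question put to the stroma was whether peritoneal tumours held more of this programme than liver tumours. They did so for Prg4, with a mean level of 91.2 ± 44.2 CPM in peritoneal and 40.0 ± 23.1 CPM in liver stroma (SD, n = 4 each), and the other 7 genes did not pass the test. The count was thus 1 of 8, beside 33.4% of the 14755 genes tested, 18.5% being called higher and 14.9% lower in the peritoneum. The median log2 fold change of the 8 genes was 0.15, and that of all genes tested was -0.018.

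Prg4 (mm9 chr1:152296542-152313295) encodes proteoglycan 4, or lubricin, a secreted lubricant of joint and serosal surfaces. In liver stroma its level was 19.98, 71.5, 42.6 and 25.9 CPM. In peritoneal stroma it was 86.5, 154, 50.4 and 74.3 CPM. It was higher in the peritoneal tumour of all 4 mice, by 0.24 to 2.11 on the log2 scale, although the groups overlapped, because the liver stroma of mouse 2 exceeded the peritoneal stroma of mouse 3. The fitted log2 fold change was 1.31 (SE 0.41, 95% confidence interval 0.39 to 2.24), with an adjusted p of 0.0346 by edgeR. The call was lost, at adjusted p between 0.0639 and 0.0916, when stroma of liver mouse 1, 3 or 4 or of peritoneal mouse 2 was left out, and at 0.0766 when all 25 libraries shared the estimate of the spread, while the direction stayed. Fibroblast markers had the same direction as Prg4 between sites: all 10 were called higher in peritoneal stroma, and their summed level was between 50977 and 74103 CPM there against 3854 and 7905 CPM in liver stroma. Within a site the order differed. Liver mouse 1 had the highest fibroblast sum (7905 CPM) and the lowest Prg4, and peritoneal mouse 3 had 73852 CPM and the lowest Prg4. Peritoneal mouse 2 was highest in both. The part of fibroblasts in the Prg4 result was not tested.

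Gata6 showed no detectable difference between the stroma of the 2 sites. Its stromal level was 19.98, 28.6, 33.2 and 23.3 CPM in liver and 26.6, 35.2, 24.4 and 26.7 CPM in peritoneum. The groups overlapped and the order within mice was mixed, with 3 of 4 mice higher in the peritoneum. The log2 fold change was 0.22 (SE 0.17, interval -0.15 to 0.59), with an adjusted p of 0.349.

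Rarb (mm9 chr14:17263356-17651381), the receptor gene whose promoter is printed above, had the lowest level of the 8 in stroma. It measured 4.64, 6.84, 2.86 and 2.96 CPM in liver and 2.37, 5.49, 1.93 and 2.84 CPM in peritoneum. By CPM it was lower in the peritoneum in 4 of 4 mice, but by as little as 0.06 on the log2 scale in mouse 4. The TMM factors of mouse 4, 1.0267 in liver and 0.9574 in peritoneum, reverse the sign of that difference. The groups overlapped, and the log2 fold change of -0.34 (SE 0.37, adjusted p = 0.524) did not pass the test.

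Adgre1 (mm9 chr17:57498109-57622952), which encodes the adhesion receptor known as F4/80, is the most general macrophage gene of the 8. Its level was 191, 124, 132 and 104 CPM in liver and 188, 91.9, 131 and 147 CPM in peritoneum. In mice 1 and 3 the paired log2 differences of CPM were -0.024 and -0.011, so small that the TMM factors reverse both signs. The groups overlapped, and the fitted log2 fold change, with these factors, was 0.13 (SE 0.23, adjusted p = 0.713).

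Alox15 (mm9 chr11:70157654-70165533) encodes the lipoxygenase that oxidises arachidonic and linoleic acid in resident macrophages and eosinophils. It measured 91.4, 98.1, 65.1 and 44.3 CPM in liver and 65.0, 75.1, 31.6 and 71.1 CPM in peritoneum. It was lower in the peritoneum in mice 1 to 3 and higher in mouse 4, and the groups overlapped (log2 fold change -0.18, SE 0.29, adjusted p = 0.668). Of the 5 eosinophil markers, Siglecf and Il5ra were called lower in peritoneal stroma, at log2 fold changes of -0.71 and -0.96. The other members did not pass, at -1.10 for Ccr3, 0.12 for Epx and 1.74 for Prg2. In peritoneal stroma Epx ran from 0 to 27.8 CPM (mean 7.07 ± 13.8) and Prg2 from 1.375 to 94.7 CPM (mean 24.95 ± 46.5). Both positive values rest on the highest library of that group, so no direction of the list is read from them. Il5ra was also higher in tumour cells (121 ± 47.0 CPM in liver, 105 ± 34.4 CPM in peritoneum) than in stroma (19.3 ± 4.58 and 9.17 ± 2.29 CPM), whereas Siglecf was near 0 in tumour cells. The part of eosinophils in the Alox15 values was not tested.

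Serpinb2 (mm9 chr1:109408000-109432055), also called PAI-2, encodes an inhibitor of plasminogen activators. Its paired log2 differences between sites ran from -1.03 to 1.32 over the 4 mice, the widest range of the 8 genes. Its level was 132, 67.3, 54.6 and 49.6 CPM in liver stroma and 64.9, 144, 28.6 and 124 CPM in peritoneal stroma. It was higher in the peritoneum in mice 2 and 4 and lower in mice 1 and 3. The log2 fold change was 0.35 with an interval from -0.70 to 1.40 (adjusted p = 0.609).

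Icam2 (mm9 chr11:106238970-106249389), which encodes a ligand of leukocyte integrins, and Cd93 (mm9 chr2:148262376-148269299), which encodes a lectin-like transmembrane receptor, are shared by endothelium and peritoneal macrophages. Icam2 measured 9.07, 12.5, 6.90 and 8.69 CPM in liver and 9.10, 6.01, 4.03 and 5.72 CPM in peritoneum, lower there in 3 of 4 mice and level in mouse 1, with a log2 fold change of -0.46 (SE 0.25, adjusted p = 0.178). It was called without peritoneal mouse 1 (adjusted p = 0.0371). Cd93 measured 167, 189, 198 and 183 CPM in liver and 225, 115, 216 and 213 CPM in peritoneum. Peritoneal mouse 2 lay far below the other 7 stromal libraries, all of which were within 167 to 225 CPM. The log2 fold change of Cd93 was 0.18 (adjusted p = 0.503), and without that library it was 0.38 and was called (adjusted p = 0.0133). Of 10 endothelial markers 1, Emcn, was called higher and 1, Kdr, lower in the peritoneum, with a list median of -0.29. Their part in the Icam2 and Cd93 values was not tested.

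Compared per kilobase of exon, the stromal order of mean levels in liver was Adgre1 (42.5 CPM per kb), Serpinb2 (32.3), Alox15 (30.4), Cd93 (27.6), Prg4 (9.34), Gata6 (8.22), Icam2 (4.88) and Rarb (1.31). In peritoneal stroma Prg4 stood at 21.3 CPM per kb, still below Alox15 at 24.7, and Gata6 at 8.83. Adgre1, at 43.0 CPM per kb in the peritoneum, was above Gata6 per kilobase in both.

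**Figure D2:**
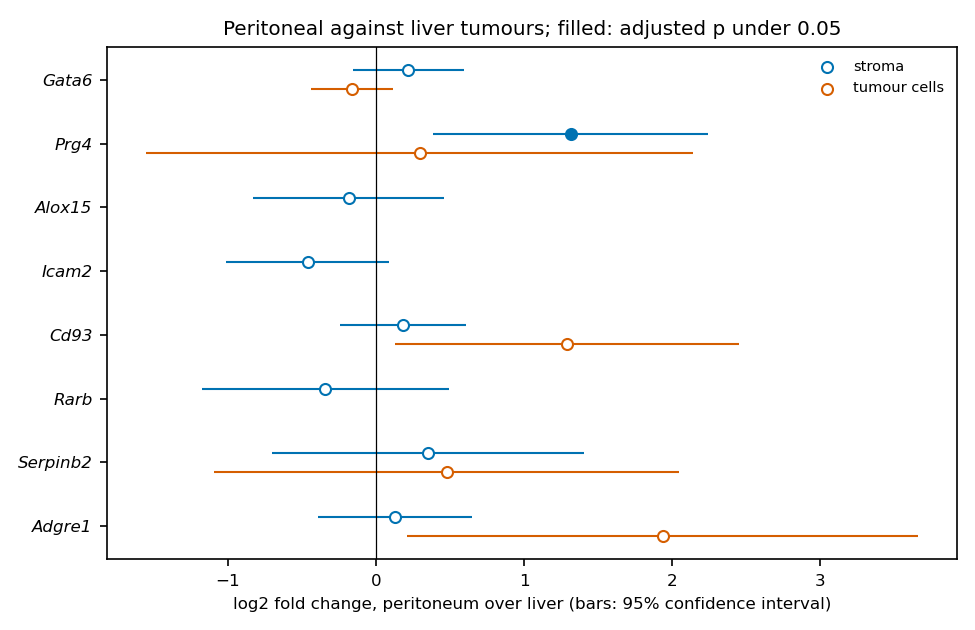
Fitted log2 fold change of each gene between peritoneal and liver tumours, in stroma and in tumour cells, with 95% confidence intervals; filled points passed an adjusted p of 0.05. Prg4 in stroma, at 1.31, is the filled point, and Alox15, Icam2 and Rarb have no point for tumour cells because their counts were too low to test.

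The wider programme, set out in lists chosen beside the 8 genes, moved in both directions in the stroma. Of 16 other genes of large peritoneal macrophages, 5 were called higher in the peritoneum, 6 lower and 5 did not pass, with a median log2 fold change of -0.64. The 4 largest called changes were in Vsig4 (-3.66) and Timd4 (-1.75), both of which the Kupffer cell list also holds, and in Ltbp1 (1.71) and Tgfb2 (1.28), both of which fibroblasts are known to express. Vsig4, a complement receptor, fell from 40.8 ± 22.9 to 2.94 ± 2.52 CPM, and Ltbp1, a binding protein of latent TGF-beta, rose from 29.9 ± 4.77 to 90.5 ± 27.9 CPM (SD, n = 4 each). Ltbp1 was higher in tumour cells, at 217 ± 13.4 CPM in liver and 248 ± 34.3 CPM in peritoneum. At each site 4 genes of this list were called lower in stroma than in tumour cells. Higher in stroma were 11 of 16 tested in liver and 9 of 15 tested in peritoneum. Of all genes tested, 39.4% in liver and 37.1% in peritoneum were called higher in stroma, and 38.4% and 39.5% lower. Of 9 transcription factors of these macrophages, Klf4 was called higher (0.89, adjusted p = 0.000687), Spi1, which encodes PU.1, was called lower (-0.55, adjusted p = 0.00162), and 7 did not pass.

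Small peritoneal macrophages, the monocyte-derived population of the cavity, are marked by MHC class II and Irf4. Of their 10 genes, 2 were called higher and 5 lower in the peritoneum (median -0.41). The class II genes H2-Ab1 and H2-Aa fell from 1779 ± 154 to 995 ± 128 CPM and from 1776 ± 246 to 999 ± 107 CPM, and Irf4 was also lower (-0.76, adjusted p = 0.039). Retnla, a secreted product of alternatively activated macrophages, rose from 2.04 ± 0.90 to 36.1 ± 22.1 CPM (4.25, adjusted p = 0.000242).

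Genes of retinoic acid supply and response moved in both directions. Of 15 listed, 14 were tested, 7 were called higher, 2 lower and 5 did not pass, with a median of 0.32. Stra6, the receptor that takes up retinol, rose from 0.128 ± 0.104 to 5.81 ± 4.14 CPM and Crabp2, a retinoic acid carrier, from 0.472 ± 0.152 to 3.25 ± 2.06 CPM. Aldh1a3, a retinaldehyde dehydrogenase that makes retinoic acid, rose from 13.95 ± 5.42 to 44.2 ± 6.499 CPM. Crabp1 was at 0 counts in all 4 liver libraries and between 0.481 and 4.32 CPM in the peritoneum, at least 4.62 higher on the log2 scale against a floor of 3 counts per library. The 2 called lower were at higher levels than Stra6, Crabp1 and Crabp2. Cyp26b1 fell from 39.9 ± 5.73 to 17.25 ± 4.34 CPM (adjusted p = 0.00145) and Rara from 195 ± 18.2 to 129 ± 14.9 CPM (adjusted p = 0.00591). Rarb, with its response element, and Cyp26a1, the other gene whose promoter is printed, were not called: Cyp26a1 measured 9.64 ± 4.58 CPM in liver and 3.72 ± 1.87 CPM in peritoneal stroma (-1.28, adjusted p = 0.051).

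None of the 5 other Gata genes was called higher in the peritoneum. Gata4, a factor of liver sinusoidal endothelium and stellate cells, fell from 27.2 ± 12.3 to 0.767 ± 0.353 CPM (-5.02, adjusted p = 1.15e-05), and Gata5 from 9.56 ± 1.17 to 5.53 ± 1.24 CPM. Gata5 was higher in tumour cells (55.96 ± 8.571 CPM in liver, 71.5 ± 6.94 CPM in peritoneum), and keratin genes of the tumour cells were likewise at lower levels in peritoneal than in liver stroma, Krt8 at 325.9 ± 68.96 against 517 ± 61.7 CPM and Krt18 at 180 ± 38.4 against 317 ± 18.3 CPM. Their part in the Gata5 values was not tested. Gata1, Gata2 and Gata3 did not pass.

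**Figure D3:**
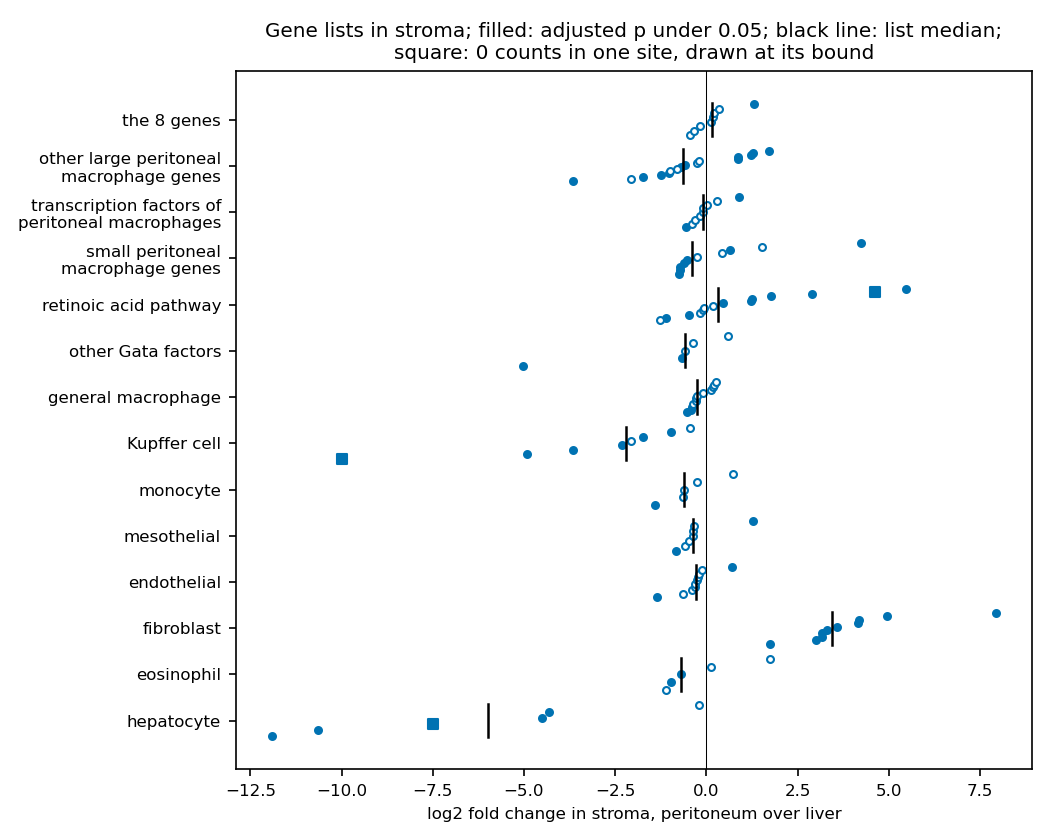
Log2 fold change between peritoneal and liver stroma of the genes of each list that were tested (points), with the list median (black line); filled points passed an adjusted p of 0.05, and squares are genes at 0 counts in all libraries of one site, drawn at the bound that 3 counts per library give. The 10 fibroblast genes all lie to the right (median 3.45), the Kupffer cell genes to the left (median -2.20), and the 8 genes lie near 0 apart from Prg4.

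Markers of the cells that could hold these transcripts gave the following values. General macrophage markers, 12 genes, were called lower in peritoneal stroma for Itgam, Csf1r and Aif1, with log2 fold changes from -0.40 to -0.54, and did not pass for the other 9 (median -0.27). Their summed level was between 8063 and 9581 CPM in liver and between 5772 and 8397 CPM in peritoneum. Of the 8 Kupffer cell markers, 6 were called lower and Clec4f, their defining lectin, was at 0 counts in all 4 peritoneal libraries against 63.3 to 215 CPM in liver. Cd5l fell from 118 ± 67.5 to 3.60 ± 2.93 CPM and Spic, a transcription factor of iron-handling macrophages, from 3.43 ± 2.54 to 0.606 ± 0.448 CPM. The part of Kupffer cells in the liver values of the 8 genes was not tested.

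Of 5 monocyte markers, Plac8 was called lower (-1.41, adjusted p = 0.000189) and none higher, Fcnb standing at 0.72 without passing. Plac8 was not particular to stroma: it measured 387 ± 51.4 and 319 ± 15.8 CPM in tumour cells of liver and peritoneum, against 248 ± 8.74 and 86.4 ± 23.9 CPM in stroma. Of the 7 mesothelial markers in the table, Wt1 was called higher (1.28, adjusted p = 0.00245), Bnc1 lower (-0.83, adjusted p = 0.027), and Msln, Upk3b, Upk1b, Lrrn4 and Gpm6a did not pass (median -0.38). Bnc1 measured 28.4 CPM in tumour cells of both sites, against 7.24 and 3.76 CPM in stroma of liver and peritoneum. Msln measured 248 and 431 CPM in tumour cells, against 53.7 and 38.6 CPM in stroma. The other 5 were called higher in stroma than in tumour cells at both sites. The largest fibroblast changes were in Dpt (7.93), Postn (4.95), Lum (4.19) and Col3a1 (4.15). Of 6 hepatocyte genes tested, 5 were called lower in peritoneal stroma, among them Alb, Fgb and Serpina1a, and Fga was at 0 counts in all 4 peritoneal libraries.

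When libraries were scaled to the general macrophage markers in place of all genes, Prg4 remained the called gene among the 8 (log2 fold change 1.58, adjusted p = 0.00767). Scaled to the endothelial markers, it was at 1.72 (adjusted p = 1.51e-06). The other 7 were not called under either scaling, and Alox15 turned to 0.035 under the macrophage scaling and 0.115 under the endothelial scaling, and Rarb to 0.030 under the latter. Over all genes, 20% were called under the macrophage scaling and 16.4% under the endothelial scaling. The endothelial list is not particular to stroma in every member. Its gene Cdh5 measured 122 ± 60.2 and 144 ± 81.7 CPM in tumour cells of liver and peritoneum, against 168 ± 68.7 and 123 ± 34.5 CPM in stroma.

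The same genes were next compared between stroma and tumour cells, which asks which sorted fraction holds the transcripts. In both sites 8 of 8 were called, 7 higher in stroma and Gata6 lower, beside 76.6% of 14584 genes called in peritoneal and 77.8% of 14620 genes in liver tumours. By direction, 37.1% of genes were called higher and 39.5% lower in stroma of peritoneal tumours, and 39.4% and 38.4% in liver tumours. At such a background the count of 8 called says little about the 8 genes. Gata6 had the opposite direction to the other 7.

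Gata6 had 95.4, 91.3, 107 and 100.0 CPM in tumour cells of the liver and 114, 82.3, 84.6 and 83.1 CPM in tumour cells of the peritoneum. No tumour cell library overlapped any stromal library. Stroma was lower by a log2 fold change of -1.84 (SE 0.15, adjusted p = 2.5e-07) in liver and -1.58 (SE 0.15, adjusted p = 2.06e-05) in peritoneum, that is 3.57-fold and 2.99-fold lower. Cultured BMEL cells, with no stroma, held 75.0, 92.3 and 99.1 CPM without Ras, 65.0, 90.7 and 70.3 CPM in RasLOW and 99.7, 52.3 and 58.6 CPM in RasHIGH. These cultures overlapped the tumour cells and lay above every stromal library. In stroma, Gata6 stood at 20.9% to 42.8% of the level in tumour cells of the same tumour. For the summed epithelial genes Krt8, Krt18, Krt19, Epcam, Cldn6, Sox9 and Cdh1, a list chosen after values had been seen, this share was 6.38% to 15.7%. That sum rests mostly on the 3 keratins, and single members differed. Cdh1 measured 162 ± 8.46 CPM in stroma and 427 ± 51.7 CPM in tumour cells of the liver, and 113 ± 21.8 and 513 ± 61.7 CPM in the peritoneum, a gap of the same order as that of Gata6. Epcam was higher in stroma (5.32 ± 0.58 CPM in liver) than in tumour cells (0.068 ± 0.064 CPM). Whether the Gata6 transcripts of the stromal fractions came from stromal cells or from tumour cells carried into the sort was not tested.

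The 7 other genes were scarce in tumour cells. Adgre1 measured 0.598, 0.394, 0.421 and 0.515 CPM in liver tumour cells and 5.67, 0.650, 0.937 and 0.3397 CPM in peritoneal tumour cells, and it was at 0 counts in all 9 cultures. The log2 fold change of stroma over tumour cells was 8.22 (SE 0.25) in liver and 6.32 (SE 0.84) in peritoneum. Alox15 was at 0.193 to 0.253 CPM in liver tumour cells and at 0 to 1.40 CPM in peritoneal ones, with log2 fold changes of 8.42 and 7.36. Prg4 had 0.575 to 1.24 and 0.141 to 2.995 CPM there (5.69 and 6.65), and Serpinb2 0.393 to 3.98 and 0.415 to 3.31 CPM (5.61 and 5.40). The 4 genes had no tumour cell library within the range of stroma. For this and every other gap between groups given here, the share of all genes so separated was not computed. In these comparisons 76.6% of genes in peritoneal and 77.8% in liver tumours were called, 37.1% and 39.4% being higher in stroma. Such a gap therefore says little about the 4 genes.

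Icam2 and Rarb were close to the limit of detection in tumour cells. Icam2 gave 3, 1, 0 and 2 counts in liver tumour cells and 25, 3, 6 and 1 counts in peritoneal ones, and Rarb gave 3, 2, 0 and 0 and 1, 5, 1 and 0 counts. Cd93 was measurable, at 2.99, 2.56, 2.64 and 2.90 CPM in liver and 17.3, 3.17, 3.96 and 3.36 CPM in peritoneal tumour cells. It stood at 1.33% to 1.80% of the stromal level in liver tumours and 1.58% to 7.68% in peritoneal ones, above the share of the 12 general macrophage markers (0.868% to 1.202% and 0.922% to 4.37%) in 8 of 8 tumours. For Adgre1 and Alox15 the share lay below that of the macrophage markers in 8 of 8 tumours. That sum rests in large part on Cd14, at 37.48 ± 2.55 CPM in liver and 44.75 ± 4.98 CPM in peritoneal tumour cells. Cultures, with no stroma, also held between 25.1 (RasLOW) and 65.7 CPM (RasHIGH) of the 12 markers. The share of the sum is therefore not one of macrophage transcripts alone.

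**Figure D4:**
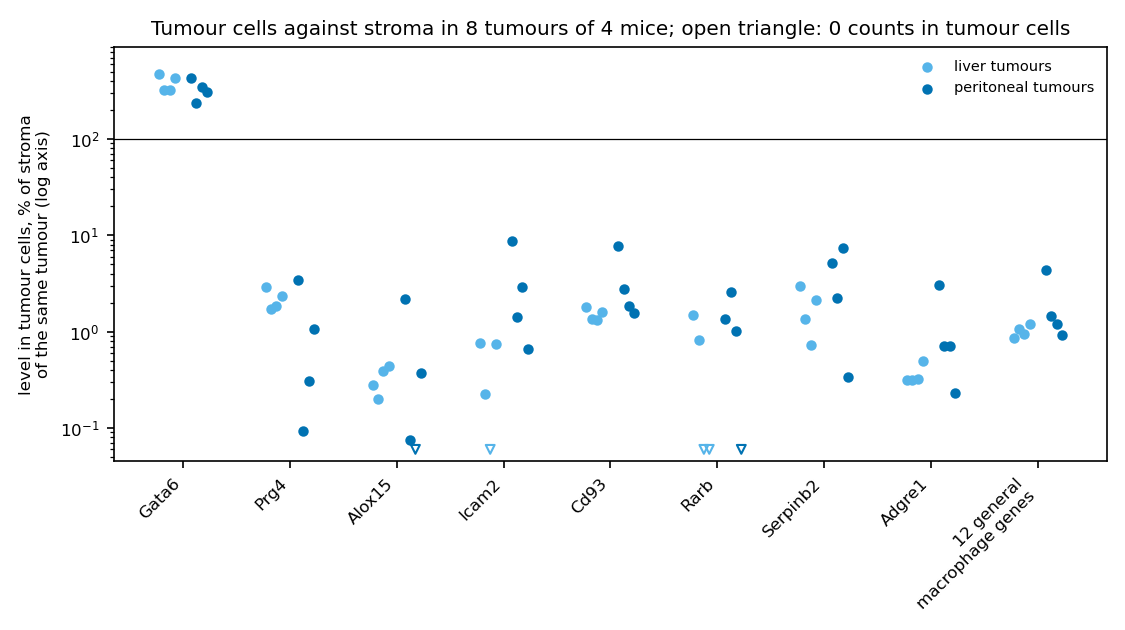
Level in tumour cells as a percentage of the stromal level of the same tumour (log axis), for the 8 genes and for the summed 12 general macrophage markers; points are the 4 mice of each site, the line marks 100 and open triangles stand for 0 counts in tumour cells. Gata6 lies above the line in all 8 tumours, and for peritoneal mouse 1 the share was 4.37% for the macrophage markers against 0.922% to 1.45% in the other peritoneal tumours.

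Tumour cells of peritoneal mouse 1 stood apart from the other 3 libraries of that group. They held 367 CPM of general macrophage markers and 1573 CPM of fibroblast markers, against 76.2 to 89.9 and 226 to 346 CPM in the other 3. Adgre1, Alox15, Icam2, Cd93 and Prg4 were highest in the same library. So were Gata6, the gene lower in stroma (114 CPM against 82.3 to 84.6 CPM), and, narrowly, Serpinb2 (3.31 CPM against 0.415 to 3.22 CPM). Rarb was not. The part of the macrophage and fibroblast transcripts in the results was not tested beyond leaving the library out. Without it, 8 of 8 genes were still called between stroma and tumour cells of the peritoneum. The log2 fold changes were 7.85 for Adgre1, 9.66 for Alox15, 8.37 for Prg4, 6.29 for Icam2 and 5.97 for Cd93.

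Between the tumour cells of the 2 sites, 0 of the 5 genes tested were called by edgeR, beside 3.2% of 13074 genes (102 genes in place of 419 with mouse as a block). Cd93 and Adgre1 had unadjusted p under 0.05, with log2 fold changes of 1.29 (adjusted p = 0.202) and 1.94 (adjusted p = 0.198). The study's rule for sorted cells is a log2 fold change beyond 1, taken here in either direction, and p under 0.05. It does not say whether p was adjusted. Read as unadjusted, here and wherever the rule is named, it was passed by both genes and by 3.52% of all genes. The study listed fewer genes than the 460 that passed here, and with adjusted p neither gene passed. DESeq2 called 0 of the 5. All 4 peritoneal libraries exceeded all 4 liver libraries in Cd93, whereas those of Adgre1 overlapped. Without peritoneal mouse 1 these values were 0.28 for Cd93 and 0.39 for Adgre1. Gata6 differed by -0.16 (SE 0.13, adjusted p = 0.505), Prg4 by 0.29 and Serpinb2 by 0.48 (adjusted p = 0.877 and 0.749), and Prg4 turned to -1.31 without peritoneal mouse 1.

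The test of whether the effect of site differed between stroma and tumour cells called 0 of 8 genes by edgeR, beside 14.3% of 15331 genes. Icam2 and Adgre1 had unadjusted p under 0.05, and both passed the study's rule, as did 10.6% of genes. DESeq2 called Icam2. The difference of log2 fold changes was -3.004 for Icam2 (SE 1.01, adjusted p = 0.0601), and with mouse as a block it was -3.06 and was called (adjusted p = 0.0342). Without peritoneal mouse 1 it was -1.42 (adjusted p = 0.253). For Adgre1 it was -1.84 (adjusted p = 0.169) and for Prg4 1.03 (adjusted p = 0.519). Without peritoneal mouse 1 the tumour cells no longer held the high value of Prg4, and its difference of 2.74 was called (adjusted p = 0.048).

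Cultured cells show what the 8 genes do in the progenitors themselves. Icam2 and Adgre1 were at 0 counts in all 9 cultures, Alox15 had 0 to 5, Rarb 0 to 8 and Prg4 3 to 6 counts. That left Gata6, Cd93 and Serpinb2 to be tested. By edgeR 0 of these 3 were called in RasLOW against BMEL WT, beside 5.96% of 12307 genes, and 0 of 3 in RasHIGH, beside 22.6% of 12331 genes. Serpinb2 in RasLOW and Cd93 in RasHIGH had unadjusted p under 0.05, and DESeq2 called Serpinb2 in RasLOW and 0 of 3 in RasHIGH.

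Serpinb2 measured 0.445, 1.64 and 0.581 CPM in BMEL WT, 17.8, 1.91 and 6.01 CPM in RasLOW and 0.991, 2.24 and 5.57 CPM in RasHIGH. All 3 RasLOW cultures lay above all 3 BMEL WT cultures, while RasHIGH overlapped them. The log2 fold change was 3.31 in RasLOW (SE 0.90, unadjusted p = 0.00686, adjusted p = 0.0786) and 1.73 in RasHIGH (SE 0.74, adjusted p = 0.146) by edgeR. In RasLOW the gene passed the study's rule for cell lines (log2 fold change beyond 1.5 in either direction, p under 0.01) with p again read as unadjusted, as did 4.4% of genes. The study's own list of genes graded with Ras prints adjusted p-values. By DESeq2 the adjusted p of Serpinb2 in RasLOW was 0.000588. The highest culture, at 502 of the 694 counts of that group, weighed on the size: without it the log2 fold change was 2.14.

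Cd93 was at 0.482, 0.335 and 0.208 CPM in BMEL WT and 1.35, 0.537 and 0.961 CPM in RasHIGH, which did not overlap (log2 fold change 1.46, unadjusted p = 0.022, adjusted p = 0.0799). For Gata6 the log2 fold changes were -0.225 in RasLOW and -0.326 in RasHIGH, and the cultures overlapped (adjusted p = 0.47 and 0.393). Rarb gave 8, 5 and 2 counts in BMEL WT, 2, 0 and 0 in RasLOW and 0 in all 3 RasHIGH cultures, where a count of 0 allows up to 0.144 CPM per library, a level that 2 of the BMEL WT cultures exceeded.

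The genes closest in pattern to each of the 8 were found among 13265 genes with a mean of at least 1 CPM over the 16 sorted libraries, as those with the lowest root mean square difference of log2(CPM + 1), centred on the mean. These points share libraries, sorting and mice, and the values are descriptions. Adgre1 was closest to Ms4a6d (0.21), Rnf130 (0.22) and Slc7a8 (0.24), and Cd93 to Ms4a6b (0.23), Mef2c (0.28) and the scavenger receptor gene Stab1 (0.29). Icam2 lay closest to Fam174b, Galnt18 and Phf11b (0.19 to 0.20) and Rarb to P2rx5, Clec1a and Armcx6 (0.19 to 0.25). Alox15 was nearest to the glucose transporter gene Slc2a3 (0.30), 2510009E07Rik (0.32) and Gm6377 (0.34).

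Prg4 was closest to Flrt2 (0.44), Dlc1 (0.45) and the prostacyclin synthase gene Ptgis (0.48), each of them higher in peritoneal than in liver stroma on average. Serpinb2 had the least close neighbours, Aldh1a2 (0.58), the retinaldehyde dehydrogenase of mesothelium, Mest (0.59) and Plau (0.63), which encodes the urokinase that Serpinb2 inhibits. Gata6 lay closest to Anxa2 (0.16), Fam57a (0.17) and Efna5 (0.18), all higher in tumour cells than in stroma, as Gata6 was. Aldh1a2 measured 63.5 ± 11.3 CPM in liver and 66.7 ± 25.3 CPM in peritoneal stroma (0.18, adjusted p = 0.643).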

How the data were processed

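RNA from 9 cultures and from 16 sorted fractions of the tumours of 4 mice was sequenced. The authors deposited raw counts of reads per gene, not normalized, with 1 column per library and no column outside the listed samples. The study's methods name TopHat2 and mm9, whereas the submitters' processing notes name Bowtie 0.12.2, FastQC and the builds mm8 and mm10. The counting program, its strand setting and the annotation are not given in the sources used here. Overlapping or antisense genes could therefore share counts. Positions are those of GENCODE M1 on NCBIM37 (mm9), joined by symbol, Adgre1 being listed there as Emr1. Exons of a gene were merged for its length.

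Total counts lay between 20818989 and 51241336, and no 2 libraries were identical. The analysis used edgeR 4.0.16 under R 4.3.3: filterByExpr (minimum count 10), TMM factors, and the quasi-likelihood F-test on the libraries compared, p-values being adjusted by Benjamini-Hochberg over every gene in the comparison. Standard errors were taken from the F statistic. Stroma and tumour cells of both sites came from the same 4 mice, as the labels give the mouse number, so libraries are paired by animal. Same-numbered libraries deviated together with a mean correlation of 0.18 between stromal sites, 0.19 and 0.23 between stroma and tumour cells, and -0.05 between tumour cells of the 2 sites. The fit with mouse as a block is reported where it changed a call. The steps were tested on simulated data with 200 changed genes.

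The 8 genes and the lists were chosen with earlier results of these data known, and the epithelial list after values had been seen. One monocyte and 1 epithelial marker are not reported here and were left out of their lists. Named from each list were up to 4 called genes with the largest change in stroma, and for each of the 8 genes the 3 nearest patterns. Cyp26a1, Cyp26b1, Rara, Aldh1a2, Cdh5 and the genes listed as not passing were added after values had been seen. Alternatives were DESeq2 1.42.0, RLE factors, 2 other filters, all 25 libraries in one fit, the study's call rule, the block, scaling to macrophage or endothelial markers, and leaving out each library.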

Additional observations from a re-analysis of the deposited data

Results flagged for a closer look

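Each group of 4 libraries was examined for a library far from the other 3 by Dixon's ratio at its 95% limit. Of 32 groups 5 were marked, where chance marks about 1 in 20. In 4 of the 5 the library was that of tumour cells from peritoneal mouse 1. Adgre1 was at 5.67 CPM there against 0.3397 to 0.937 CPM in the other 3, Cd93 at 17.3 against 3.17 to 3.96 CPM, and Icam2 at 0.797 against 0.0377 to 0.117 CPM. Gata6, the gene that tumour cells hold at a higher level than stroma, was also highest there, at 114 CPM against 82.3 to 84.6 CPM. In stroma, Cd93 was at 115 CPM in peritoneal mouse 2 against 213 to 225 CPM in the other 3.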

How the results depend on the processing

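Between stroma and tumour cells, all 8 genes kept their call and direction in 15 settings per site, so no call changed there. For the site effect in stroma, 1 of 8 genes was called; it was 0 with all 25 libraries in one fit, and 0 to 2 when a library was left out. Alox15 reversed to 0.035 with macrophage and 0.115 with endothelial scaling, and ran from -0.364 to 0.037 when a library was left out, the reversal being without peritoneal mouse 3. Rarb reversed to 0.030 with endothelial scaling, and Adgre1 ran from -0.022 (without peritoneal mouse 1) to 0.335. None of these was called. For tumour cells, 0 of 5 became 2 under the study's rule (Cd93 and Adgre1), and Prg4 reversed to -0.615 with the mouse block and ran from -1.307 (without peritoneal mouse 1) to 0.673. For the difference of site effects, 0 of 8 became 1 under DESeq2 (Icam2), 2 under the study's rule (Icam2 and Adgre1), 1 with the mouse as a replicate block (Icam2), and 0 to 1 when a library was left out. There, with a library left out, Serpinb2 ran from -1.226 to 0.240 (reversed without any of 7 libraries), Alox15 from -1.534 to 1.315 (without tumour cells of peritoneal mouse 1) and Rarb from -1.533 to 0.383 (without those of mouse 2). In RasLOW, 0 of 3 became 1 (Serpinb2) under DESeq2, with no filter, with all libraries in one fit and under the study's rule, and 0 to 1 when a culture was left out. In RasHIGH it became 1 (Rarb) with all libraries in one fit, and 0 to 2 when a culture was left out, the 2 being Gata6 and Serpinb2 without the RasHIGH culture that was highest in Gata6. The cause of these shifts was not tested.

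The mouse block left 1 of 8 called in stroma, 0 of 5 in tumour cells and 8 of 8 between stroma and tumour cells at each site, and it changed no other call than Icam2. For cultures the numbers name samples only: same-numbered cultures correlated at -0.12 and 0.06 on average, 0 of 3 and 2 of 3 correlated best with their own number, and the block gave 0 calls in both. Over all genes, the count called in stroma (4926) was 2107 under the study's rule, 2946 with macrophage and 2418 with endothelial scaling. In tumour cells, 419 became 1152 by DESeq2, 102 with the block and 41 to 884 when a library was left out. Between stroma and tumour cells, 11168 and 11376 became 6377 and 6437 under the study's rule. In the difference of site effects 2191 became 1180 with all libraries in one fit. In RasLOW 734 became 1622 by DESeq2, 2440 with all libraries in one fit, 295 with the block and 148 to 2340 when a culture was left out. In RasHIGH 2789 became 4347 with all libraries in one fit, 1190 under the study's rule and 1517 to 3896 when a culture was left out. In most tumour cell libraries Icam2 and Rarb rest on 0 to 6 counts.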
